A study of Mus musculus with 6 samples.

Results

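The levels of 10 immediate early genes were followed in sorted heart muscle cells that overexpressed serum response factor. They were listed by name, as classic target genes of SRF and of the ternary complex factors that bind DNA beside it, by a rule that uses no measured value but was written with earlier results of these data known. The 10 genes, of 23337 in the count table, were Fos, Fosb and Fosl2, Jun, Junb and Jund, Egr1, Egr2 and Egr3, and Ier2.

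RNA-seq was performed on GFP+ cardiomyocytes (CMs) of wildtype mice collected at postnatal day 14. The SRF-OE group had received AAV9-cTNT-SRF-2A-GFP and the GFP group AAV9-cTNT-GFP, both injected at postnatal day 1 at 5e8 vg (vector genomes) per g. The cTNT promoter (cardiac troponin T) drives the transgene in CMs, the dose transduces only some CMs of each heart, and both groups went through collagenase perfusion and sorting on GFP. The labels list 3 libraries per group, but the column headed for SRF-OE replicate 1 holds gene lengths, which left 2 SRF-OE libraries (OE2 and OE3) and 3 GFP libraries (GFP1, GFP2 and GFP3) with counts. The labels do not say whether the libraries came from separate hearts, so the p-values given measure only the spread between these libraries.

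An immediate early gene is one whose transcription starts within minutes of a stimulus and needs no new protein. At many of these genes SRF sits on a CArG box, either with a ternary complex factor of the Elk family, which is switched on by MAP kinase signaling, or with a cofactor of the myocardin family, which responds to actin dynamics. Their products are themselves transcription factors: Fos and Jun proteins pair to form AP-1, Egr proteins are zinc finger factors, and Ier2 is a small nuclear protein of the same early response. In the heart, these genes are known to be switched on by stretch, by growth signals and by enzymatic cell isolation.

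Promoter sequence was read for the members with an entry in the RefSeq promoter table (GRCm38.p6), 7 of 10: Fos, Fosb, Fosl2, Jun, Junb, Jund and Egr2. In each, the 250 bases before the transcription start were searched on both strands for the CArG box (CC and GG around a run of A and T), the AP-1 motif TGANTCA, the CRE-like motif TGACNTCA, the Ets core CCGGAA and the Egr motif GCGNGGGCG. The windows of 3 members are shown because they hold the start of the member with the clearest difference between groups (Fos), of the member with the highest level (Jun), and of the one member with a CArG box (Egr2). Capitals mark the motif found, and a window with no capitals holds none of these letters.
Fos, chr12:85473640-85473889, plus strand: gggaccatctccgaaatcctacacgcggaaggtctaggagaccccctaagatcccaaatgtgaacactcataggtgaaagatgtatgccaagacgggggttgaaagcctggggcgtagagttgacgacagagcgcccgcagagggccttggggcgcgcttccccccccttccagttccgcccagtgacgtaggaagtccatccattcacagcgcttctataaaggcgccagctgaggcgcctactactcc
Jun, chr4:95052223-95052472, minus strand: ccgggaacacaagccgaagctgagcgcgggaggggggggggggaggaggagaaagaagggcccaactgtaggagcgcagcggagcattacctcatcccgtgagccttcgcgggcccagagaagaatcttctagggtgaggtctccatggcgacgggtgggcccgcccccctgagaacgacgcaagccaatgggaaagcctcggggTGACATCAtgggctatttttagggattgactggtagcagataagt
Egr2, chr10:67537619-67537868, plus strand: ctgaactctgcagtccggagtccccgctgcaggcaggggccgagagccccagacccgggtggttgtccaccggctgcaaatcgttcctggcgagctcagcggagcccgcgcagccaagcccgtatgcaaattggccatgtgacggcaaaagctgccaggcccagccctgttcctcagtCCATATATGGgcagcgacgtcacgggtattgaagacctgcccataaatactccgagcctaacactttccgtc

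The CArG box of Egr2 shown above lay at -72 to -63 from the start, and another start window of Egr2 held one with other letters. Of all 32851 windows of this length 1.47% hold one, as do 1.56% of the 15725 genes of the count table with a window. The TGACATCA of Jun lay at -45 to -38, a motif found in 7.49% of windows and 7.89% of those genes. The Egr motif was found in Fosb at -50 to -42 and in Fosl2 at -79 to -71, in 4.7% of all windows and in 7.44% of those genes. The Ets core was found in that other start window of Egr2, in 12% of all windows and in 17% of those genes. The AP-1 motif TGANTCA was in 0 of the 7 members, in 6.75% of windows and in 7.38% of those genes. The well known serum response element of Fos lies further upstream than these windows reach. A match is a match of letters only.

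Srf itself, the gene carried by the virus, was measured first as a check of the labels. Its level was 360 CPM (counts scaled for library size with edgeR's TMM factors) in OE2 and 748 CPM in OE3. It was 67.2 CPM in GFP2 and 85.1 CPM in GFP3, but 338 CPM in the library labelled GFP1. That library is therefore close to the lower SRF-OE library in the gene that defines the groups, and the test of each member is given with it and without it. Lengths stand under the first library name, and gene symbols stand under the heading Chr, a name for chromosomes. The names may thus be displaced by 1 column, in which case the column headed GFP1 would hold SRF-OE replicate 3. The labels do not settle this, it was not tested, and the columns were read by their names. Unless it is left out, the library labelled GFP1 is therefore counted as GFP in what follows. Under the displaced names Fos and Egr1 would overlap between groups, since the library labelled GFP1 lies above GFP2 in both genes. The log2 fold change of Srf was 1.76 (SE 0.71, adjusted p = 0.36, edgeR's quasi-likelihood test with Benjamini-Hochberg adjustment, used for every adjusted p of the report unless DESeq2 is named) in 5 libraries and 2.87 (SE 0.37, adjusted p = 0.044) without the library labelled GFP1. Total counts were 14137433 to 23159631 per library.

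The sorted cells carried the markers of CMs, and also RNA of other heart cells. Summed over 8 CM markers (Myh6, Tnnt2, Tnni3, Actc1, Actn2, Ryr2, Pln and Mb), the level was 83038 to 90741 CPM in SRF-OE and 96718 to 143386 CPM in GFP, and 7 of the 8 were lower in SRF-OE with no overlap between groups, against 17.3% of all genes tested. The summed level of 8 fibroblast markers was 422 to 821 CPM in SRF-OE and 307 to 441 CPM in GFP, and 4 of the 8 were higher with no overlap, against 16.1% of all genes. The 10 endothelial markers summed to 925 CPM in OE2 and 364 CPM in OE3, against 370 to 713 CPM in GFP, and 0 of the 10 separated the groups. The 7 smooth muscle and pericyte markers summed to 331 to 383 CPM in SRF-OE and 134 to 337 CPM in GFP (2 of 7 higher with no overlap). Of the 7 leukocyte markers, 6 were in the table and summed to 11.8 to 30.7 CPM in SRF-OE and 9.71 to 22.4 CPM in GFP, with Cd52 at 0 in at least one library. Without the library labelled GFP1, 8 of 8 CM markers were lower with no overlap (30.2% of all genes), and 8 of 8 fibroblast, 4 of 7 smooth muscle and pericyte and 2 of 10 endothelial markers were higher (30.8% of all genes). All 8 fibroblast, 10 endothelial and 7 smooth muscle and pericyte markers had positive log2 fold changes, with medians of 0.79, 0.42 and 0.72, or 0.94, 0.81 and 1.14 without that library. In bulk RNA from sorted cells, fewer cells of a type and less RNA per cell cannot be told apart, and the part of these markers in the results below was not tested.

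Between SRF-OE and GFP, Fos and Egr1 were the tested members with lower levels in both SRF-OE libraries than in every GFP library, while Jun, Junb, Jund, Ier2, Fosl2, Fosb and Egr2 overlapped between groups. Fos stood at 0.425 of its GFP level and Egr1 at 0.633. Of the 9 members with enough counts to test (Egr3 was left out), 0 passed an adjusted p of 0.05 in either direction, as did 0 of the 13754 genes tested (0%). At an unadjusted p under 0.05, 2 of 9 members were lower, against 7.59% of all genes, and 0 were higher, against 6.35%. Groups that did not overlap, with SRF-OE lower, were found for 2 of 9 members and for 17.3% of all genes, a share close to that of the members, and with SRF-OE higher for 0 members and 16.1% of all genes. The median log2 fold change was -0.06 over the members and 0.03 over all genes. Without the library labelled GFP1, 8 members were tested and 0 passed, where 0.97% of 13397 genes were called lower and 1.98% higher, and SRF-OE was below GFP without overlap for 3 members (Fos, Fosb and Egr1) and for 30.2% of all genes, and above it for 0 members and 30.8%.

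**Figure D1:**
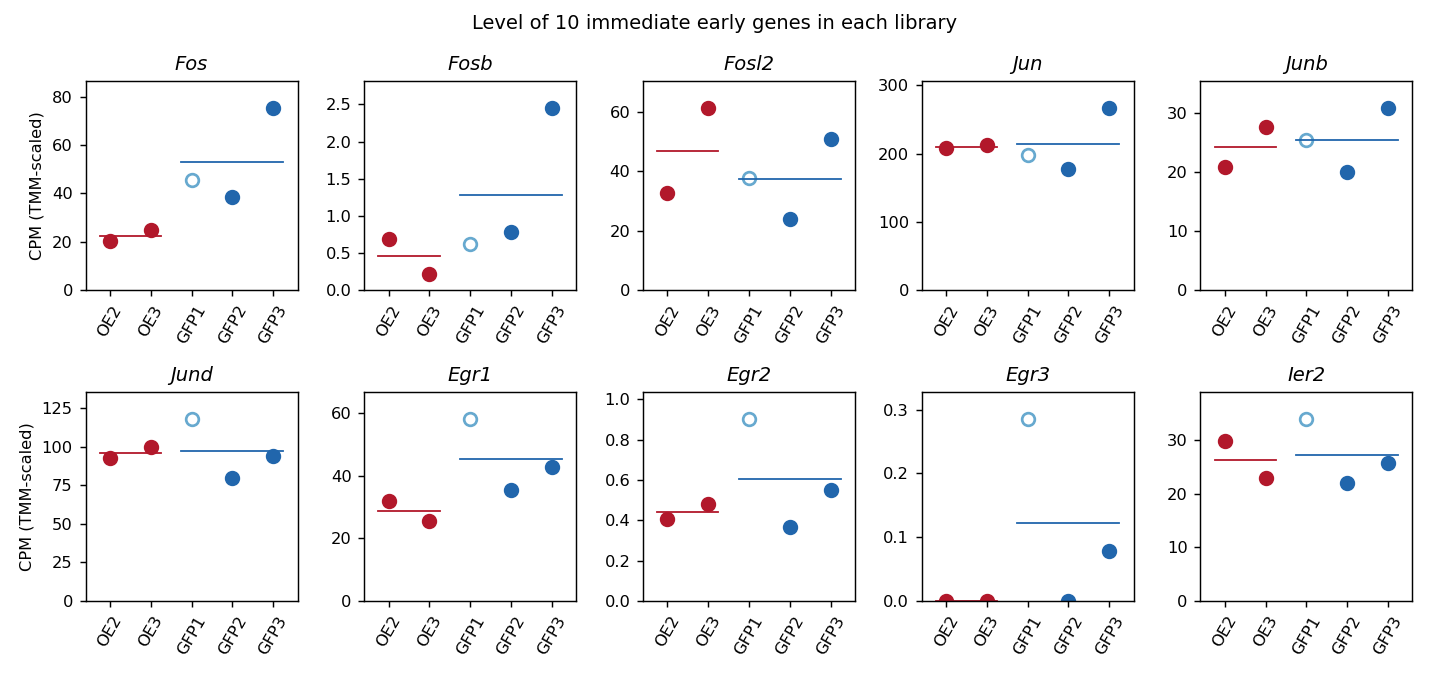
Level of each member in every library, in CPM scaled by the TMM factors on a linear axis that starts at 0 (OE2 and OE3 are the SRF-OE libraries, the open circle is the library labelled GFP1, and lines are group means). Fos lies between 20.3 and 24.7 CPM in SRF-OE and between 38.5 and 75.1 CPM in GFP, and Egr1 is the other tested member whose groups are apart.

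Fos, the founding member of the Fos proteins of AP-1, was lower in both SRF-OE libraries than in any GFP library. It was measured at 20.3 CPM in OE2 (352 counts) and 24.7 CPM in OE3 (565 counts). In the GFP group it was 45.7 CPM in the library labelled GFP1 (961 counts), 38.5 CPM in GFP2 (840 counts) and 75.1 CPM in GFP3 (952 counts). Both SRF-OE libraries were below all GFP libraries, the library labelled GFP1 lay among the GFP libraries for this gene, and GFP3 stood above the rest. The means were 22.5 ± 3.08 CPM (SD, n = 2) for SRF-OE and 53.1 ± 19.4 CPM (SD, n = 3) for GFP. The log2 fold change was -1.23 (SE 0.30, 95% interval -1.96 to -0.50, unadjusted p = 0.0056, adjusted p = 0.35), or 0.425 of the GFP level, and it did not pass the adjusted threshold of 0.05. Leaving out the library labelled GFP1 gave -1.32 (SE 0.32, adjusted p = 0.070), and leaving out GFP3 gave -0.90 (adjusted p = 0.75).

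The other settings of the analysis kept the library labelled GFP1 in the GFP group or left it out, so the displaced names were not tested. The difference of Fos was negative in 17 of 17 of them, from -1.42 to -0.90. Its adjusted p ranged from 0.000302 (DESeq2 without the library labelled GFP1) to 0.77 over them, was under 0.05 in 5, and was not given in 1. With DESeq2 on the 5 libraries, the log2 fold change was -1.24, and the adjusted p was 0.027 with a filtering target of 0.1, 0.048 with no independent filtering, and not given with a target of 0.05. In these 2 settings 0.605% and 0.135% of the genes with an adjusted p were called lower. The other 3 settings that called Fos lower were the replicate number as a block, which called 3.14% of genes lower, and, without the library labelled GFP1, that block and DESeq2, which called 2.93% and 6.14%. The 2 block fits are nearly the same fit, since the library labelled GFP1 is the only counted one with its number and adds nothing to the contrast within numbers. Fos lies on chromosome 12 of GRCm38, from 85473890 to 85477273, on the plus strand.

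Fosb, a close relative of Fos that is induced by the same stimuli, was near the limit of detection. It had 12 counts in OE2, 5 in OE3, 13 in the library labelled GFP1, 17 in GFP2 and 31 in GFP3, or 0.219 to 0.694 CPM in SRF-OE and 0.618 to 2.45 CPM in GFP. The groups overlapped, by the library labelled GFP1 lying below OE2, and again GFP3 was highest. The log2 fold change was -1.47 (SE 0.85, 95% interval -3.50 to 0.56, adjusted p = 0.44) and -1.80 (SE 0.82, adjusted p = 0.21) without that library, where the groups were apart. It was -0.65 without GFP3 and -2.47 without OE2.

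Fosl2 (Fra-2), the Fos protein that lacks the strong activation domain of Fos, did not share the direction of Fos. Its level was 32.5 CPM in OE2 and 61.1 CPM in OE3. It was 37.8 CPM in the library labelled GFP1, 24.0 CPM in GFP2 and 50.7 CPM in GFP3. The highest level was in an SRF-OE library and the lowest in a GFP library, but the groups overlapped. The log2 fold change was 0.33 (SE 0.37, 95% interval -0.56 to 1.21, adjusted p = 0.69), 0.34 without the library labelled GFP1, and turned to -0.21 without OE3, so these libraries give it no direction.

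The Jun genes, which code for the obligate partners of Fos proteins in AP-1, differed little between group means. Jun was measured at 208 and 213 CPM in OE2 and OE3. It was 199 CPM in the library labelled GFP1, 178 CPM in GFP2 and 266 CPM in GFP3. The SRF-OE libraries lay inside the range of the GFP libraries, and GFP3 was highest, as for Fos. The means were 210.2 ± 3.38 CPM (SD, n = 2) and 214 ± 46.4 CPM (SD, n = 3), with a log2 fold change of -0.03 (SE 0.19, adjusted p = 0.95) and a 95% interval of the fold from 0.717 to 1.34. A change of Jun of the size measured for Fos lies outside that interval.

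Junb, a Jun protein that often restrains Jun, was 20.9 and 27.7 CPM in OE2 and OE3. It was 25.5, 20.0 and 30.8 CPM in the library labelled GFP1, GFP2 and GFP3. Its log2 fold change was -0.06 (SE 0.23, adjusted p = 0.91), with an interval of the fold from 0.658 to 1.40. Jund, the Jun protein that most cells make without a stimulus, was 92.6 and 99.8 CPM in SRF-OE and 118, 79.5 and 93.8 CPM in GFP, in the same order of libraries. Its log2 fold change was -0.01 (SE 0.18, adjusted p = 0.98), with an interval of the fold from 0.732 to 1.34. The groups overlapped in both genes. Once the library labelled GFP1 was left out, the values were -0.07 for Jun, -0.05 for Junb and 0.16 for Jund (SE 0.20, 0.26 and 0.13), with adjusted p of 0.84, 0.92 and 0.47. The sign of these small values was not stable, turning to 0.16 for Jun and 0.10 for Junb without GFP3, and to 0.12 for Junb and 0.04 for Jund without OE2. Exons of Jun, Jund and Junb overlap a gene on the other strand (Junos, Gm11175 and Prdx2), and since the strand setting of the counting is not given in the sources used here, reads from these partners cannot be told apart from theirs.

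Egr1, a zinc finger factor induced by growth factors and stretch, was the other tested member lower in both SRF-OE libraries. Its level was 31.9 CPM (551 counts) in OE2 and 25.6 CPM (586 counts) in OE3. It was 58.1 CPM (1222 counts) in the library labelled GFP1, 35.3 CPM (770 counts) in GFP2 and 42.8 CPM (542 counts) in GFP3. The groups did not overlap, but the gap between the nearest libraries was small, and the library labelled GFP1 was the highest. The means were 28.7 ± 4.41 CPM (SD, n = 2) and 45.4 ± 11.6 CPM (SD, n = 3). The log2 fold change was -0.66 (SE 0.24, 95% interval -1.23 to -0.09, unadjusted p = 0.029, adjusted p = 0.35), or 0.633 of the GFP level. It was -0.44 (SE 0.17, adjusted p = 0.17) without the library labelled GFP1, a smaller value of the same sign. In 17 of 17 other settings Egr1 was negative, from -0.83 to -0.38, with adjusted p from 0.17 to 0.77. None of these settings used the displaced names.

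Egr2, the member with a CArG box in the windows above, is best known for its role in Schwann cells and had 7 to 19 counts per library. Its level was 0.405 and 0.481 CPM in SRF-OE and 0.903, 0.367 and 0.553 CPM in GFP, the highest being the library labelled GFP1. The groups overlapped, and the log2 fold change was -0.45 (SE 0.59, 95% interval -1.88 to 0.98, adjusted p = 0.73), an interval that holds a change as large as that of Fos in the same direction. Without the library labelled GFP1 its counts fell under edgeR's filter, and DESeq2 gave -0.03 (SE 1.21, DESeq2 adjusted p = 0.99). Egr3, a relative best known in muscle spindles and neurons, had 0 counts in both SRF-OE libraries and in GFP2, 6 in the library labelled GFP1 and 1 in GFP3. A count of 0 allows up to 3 counts, or 0.131 to 0.173 CPM in the SRF-OE libraries, so a difference in Egr3 was not detectable at this depth.

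Ier2 was 29.8 CPM in OE2 and 22.9 CPM in OE3. It was 33.9 CPM in the library labelled GFP1, 22.0 CPM in GFP2 and 25.7 CPM in GFP3. The groups overlapped, with means of 26.3 ± 4.85 CPM (SD, n = 2) and 27.2 ± 6.11 CPM (SD, n = 3). The log2 fold change was -0.05 (SE 0.23, adjusted p = 0.93), with an interval of the fold from 0.664 to 1.41. It turned to 0.15 (SE 0.19, adjusted p = 0.63) without the library labelled GFP1 and to 0.12 without OE3.

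**Figure D2:**
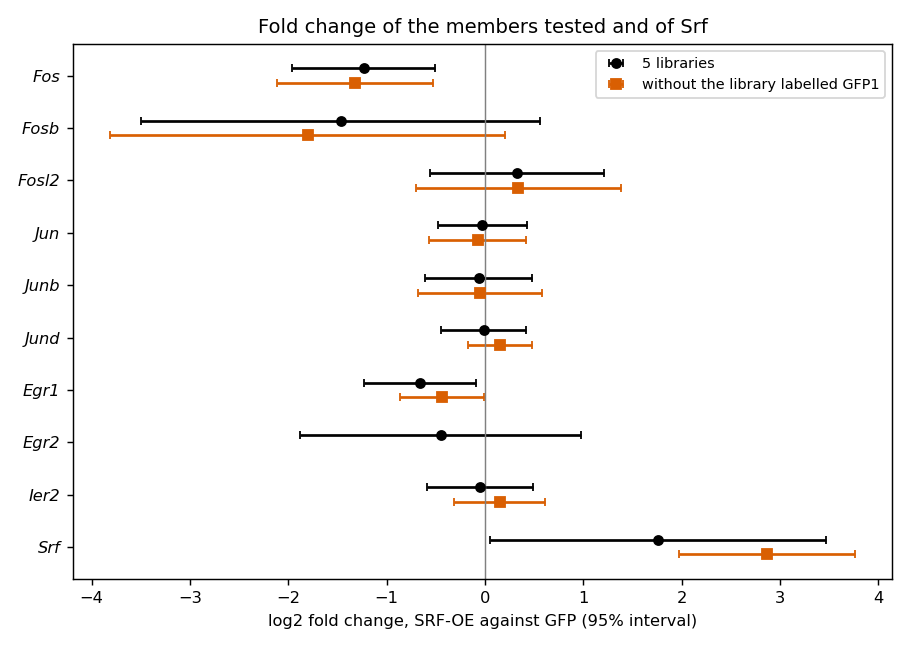
Log2 fold change of SRF-OE against GFP with its 95% interval for the 9 members tested and for Srf, from 5 libraries (circles) and without the library labelled GFP1 (squares, where Egr2 was not tested). The intervals of Fos and Egr1 lie below 0 in both, while those of Jun, Junb, Jund, Ier2, Fosl2 and Fosb cross it.

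Levels were compared between members as CPM per kb of gene length, since longer genes collect more reads. Jun was highest with a median of 65.2 CPM per kb over the 5 libraries (range 55.8 to 83.6), above 92.3% of the genes tested, and its range was clear of that of Jund at 32.6 (27.6 to 41.0). Then followed Fos at 18.4 (9.72 to 35.9), Ier2 at 16.9 (14.4 to 22.3), Junb at 13.8 (10.8 to 16.7), Egr1 at 11.5 (8.34 to 18.9) and Fosl2 at 6.44 (4.09 to 10.4), whose ranges each overlapped the next. Fosl2 was clear of Fosb at 0.184 (0.0579 to 0.648), which overlapped Egr2 at 0.162 (0.124 to 0.305), and Egr3 was last with a median of 0. Jun, Jund, Fos, Ier2, Junb, Egr1 and Fosl2 were thus each above the middle of the genes tested (Fosl2 above 53.0% of them), while Fosb was above 5.21% and Egr2 above 4.44%. Fos had the widest range, relative to its level, of the members in the upper part of this order, and stood below Ier2 in both SRF-OE libraries and the library labelled GFP1, but above it in GFP2 and GFP3.

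**Figure D3:**
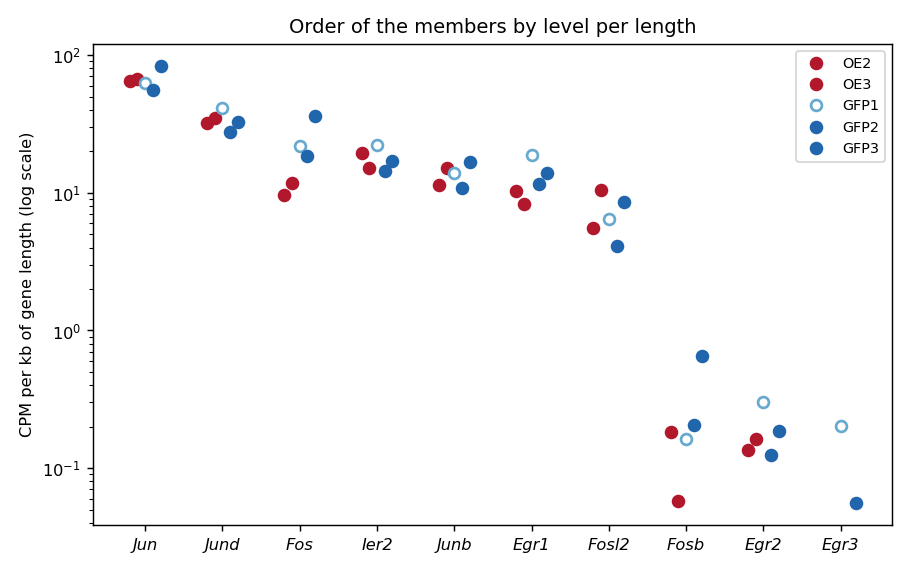
Level of the members in every library, in CPM per kb of gene length on a log axis, ordered by the median over 5 libraries (OE2 and OE3 are SRF-OE, open circles are the library labelled GFP1, and values of 0, in 3 libraries for Egr3, are not drawn). Jun and Jund lead, 7 members lie above 4 CPM per kb, and Fosb, Egr2 and Egr3 lie below 1.

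The make-up of the Fos family differed between the libraries of the groups. These ratios within a library do not depend on scaling between libraries, but they were chosen after the values of the members were seen and are given without a test. Of the summed level per kb of Fos, Fosb and Fosl2, Fos held 62.9% in OE2 and 53.0% in OE3. It held 76.7% in the library labelled GFP1, 81.1% in GFP2 and 79.4% in GFP3. Fosl2 made up most of the rest, with 35.9% and 46.8% in SRF-OE and 22.7%, 18.0% and 19.1% in GFP, and Fosb was at most 1.43%. The ratio of Fosl2 to Fos was 0.571 and 0.883 in SRF-OE and 0.295, 0.222 and 0.241 in GFP. In this ratio the library labelled GFP1 lay nearest to SRF-OE among the GFP libraries, but on the GFP side of the gap.

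Fos was also lower relative to its partner Jun, at 0.149 and 0.177 of the level of Jun per kb in SRF-OE and 0.350, 0.330 and 0.429 in GFP. The ratio of Egr1 to Ier2 was 0.530 and 0.554 in SRF-OE against 0.848, 0.796 and 0.824 in GFP. With the columns read by their names, the spread within each group was small beside the gap. Under the displaced names the ratios of Fos to Jun and of Egr1 to Ier2 would overlap between groups, since the library labelled GFP1 lies above GFP2 in both. The ratio of Junb to Jun (0.174 and 0.225 against 0.222, 0.194 and 0.200) and that of Jund to Jun (0.493 and 0.520 against 0.658, 0.495 and 0.390) overlapped between groups. Jun held 53.2% to 62.9% of the Jun family in every library. The smallest p that an exact permutation test allows is 0.1 for 2 libraries against 3 and 0.33 for 2 against 2.

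**Figure D4:**
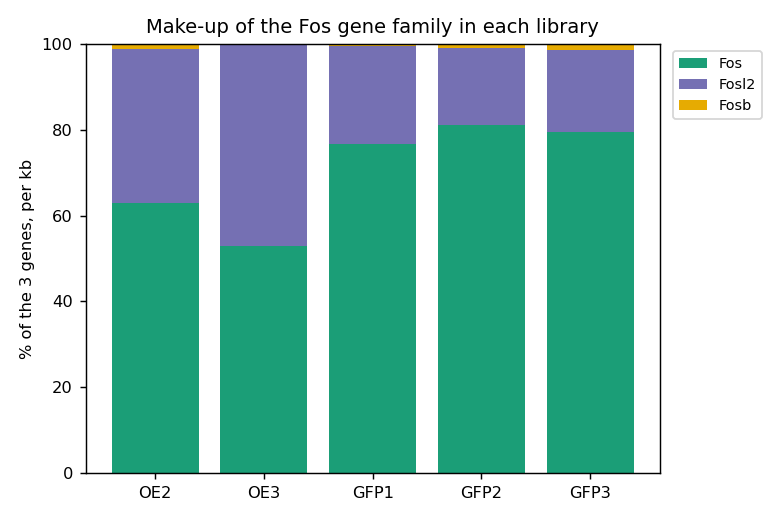
Share of Fos, Fosl2 and Fosb in their summed level per kb in each library, in percent (OE2 and OE3 are SRF-OE, GFP1 is the library of that label). Fos holds 53.0% to 62.9% in SRF-OE and 76.7% to 81.1% in GFP, and Fosl2 makes up nearly all of the rest.

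The cofactors that join SRF on DNA were read from the same fit. All 6 were tested (the ternary complex factors Elk1, Elk3 and Elk4, the myocardin family genes Mkl1 and Mkl2, and Myocd), and 0 passed the adjusted threshold. At an unadjusted p under 0.05, 1 (Myocd) was higher, against 6.35% of all genes. The median log2 fold change of the 6 was 0.05, against 0.03 for all genes tested. Myocd, the myocardin of heart and smooth muscle, was 275 and 419 CPM in SRF-OE and 215, 205 and 236 CPM in GFP, with a log2 fold change of 0.66 (SE 0.19, adjusted p = 0.35) and the same value without the library labelled GFP1 (adjusted p = 0.12). Elk3 was 0.39 (SE 0.47, adjusted p = 0.71) with all libraries and 0.90 (SE 0.38, adjusted p = 0.18) without that one. Elk1, Elk4, Mkl1 and Mkl2 lay between -0.15 (Mkl2) and 0.08 (Mkl1), with groups that overlapped.

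Other immediate early transcription factors mostly had positive values, although few passed a test. Of 23 further transcription factors of this class, 21 were tested (not Fosl1 and Egr4), and their log2 fold changes were positive in 20 and negative in 1, with a median of 0.38 against 0.03 for all genes tested. None passed the adjusted threshold in 5 libraries, and 4 were higher at an unadjusted p under 0.05, against 6.35% of all genes. Maff, a small Maf protein, was 1.79 and 2.19 CPM in SRF-OE and 0.760, 0.459 and 0.631 CPM in GFP, a log2 fold change of 1.68 (SE 0.41, adjusted p = 0.35), or 1.90 without the library labelled GFP1 (adjusted p = 0.070). Cebpd, a factor of acute inflammation, was at 1.10 (SE 0.36, adjusted p = 0.35), or 1.45 without that library (adjusted p = 0.063), and Klf4, a zinc finger factor known for its part in smooth muscle and endothelium, at 0.98 (SE 0.29, adjusted p = 0.35). At the low end stood Klf10, induced by TGF-beta, with -0.44 (SE 0.35, adjusted p = 0.56), Ier5l with 0.05 and Cebpb with 0.11. Without the library labelled GFP1 the median was 0.65, and 2 of the 21 rose: Klf4 by 1.30 (SE 0.21, adjusted p = 0.048) and Klf6, named after its value was seen, by 1.04 (SE 0.16, adjusted p = 0.047). In that fit 1.98% of all genes were called higher, and markers of fibroblasts, endothelium and smooth muscle had positive values too, as given above. Their part in these values was not tested.

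The 31 effectors and feedback inhibitors of the early response had a median log2 fold change of 0.20, with 19 positive and 12 negative. Again 0 passed the adjusted threshold in 5 libraries, with 3 higher (6.35% of all genes) and 3 lower (7.59% of all genes) at an unadjusted p under 0.05. Dusp1, a phosphatase that switches MAP kinases off, was 128 and 90.8 CPM in SRF-OE and 176, 142 and 143 CPM in GFP, with a log2 fold change of -0.49 (SE 0.19, adjusted p = 0.36), or -0.37 without the library labelled GFP1. Cyr61, a matrix protein, was at -0.45 (SE 0.18, adjusted p = 0.36) and Ier3, a regulator of survival, at -0.43 (SE 0.15, adjusted p = 0.35), both with groups apart, or -0.47 and -0.40 without that library. At the other end were Gadd45b, a stress response gene, with 0.90 (SE 0.26, adjusted p = 0.35), and Ctgf, a matrix protein of the same family as Cyr61, with 1.06 (SE 0.36, adjusted p = 0.35), or 0.78 (adjusted p = 0.12) and 1.44 (adjusted p = 0.053) without it. Ptgs2, the inducible cyclooxygenase, was 11.5 and 38.0 CPM in SRF-OE, 18.5 CPM in the library labelled GFP1, and 0.321 and 0.316 CPM in GFP2 and GFP3, so that its log2 fold change was 1.93 (SE 1.45, adjusted p = 0.54) with that library and 6.26 (SE 0.77, adjusted p = 0.042) without it. Without it, 30 of the list were tested with a median of 0.42, and 4 rose, against 1.98% of all genes: Ptgs2 and, named after their values were seen, Sgk1 by 1.46 (adjusted p = 0.047), Zfp36l1 by 1.21 (adjusted p = 0.0496) and Plk2 by 1.05 (adjusted p = 0.047). Ptgs2, with 7 counts in GFP2 and 4 in GFP3, was not tested when at least 10 counts were asked for in every library. The other calls without the library labelled GFP1, Klf4 and Klf6 included, were not made in that setting, where 0 genes of these lists passed.

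**Figure D5:**
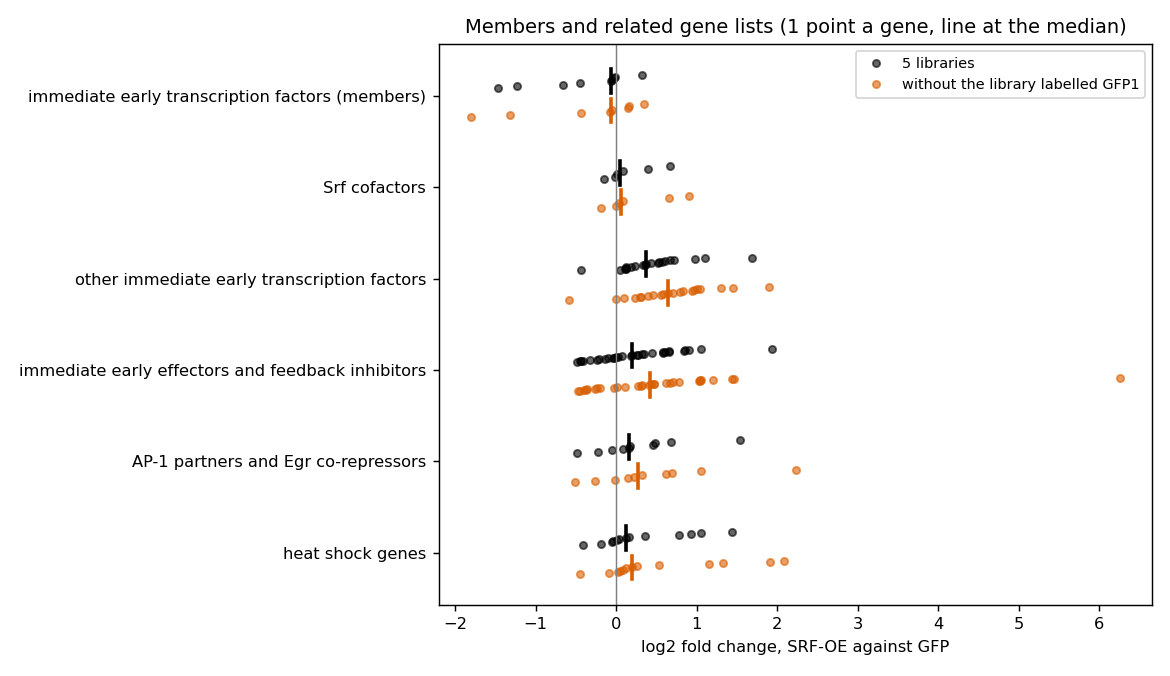
Log2 fold change of SRF-OE against GFP for the members and for related gene lists, 1 point a gene, with a line at the median, from 5 libraries (black) and without the library labelled GFP1 (orange). The members have a median of -0.06 in both, and the further immediate early transcription factors have 0.38 and 0.65.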

How the data were processed

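RNA from sorted GFP+ CMs was amplified with SMART-Seq v4 and made into libraries with Nextera XT, per the labels. The authors deposited raw counts per gene, which the submitters' processing notes tie to CASAVA 1.8, STAR 2.5.3a, featureCounts of Subread 1.5.2 and mm10. Each column was assigned by its name, and 0 of those with values went without a use. The column headed for SRF-OE replicate 1 has 0 zeros and served as gene length. Gene symbols stand under the heading Chr, as given above. Whether the names are displaced by 1 column or a library was lost was not tested.

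Counts were tested with edgeR 4.0.16 in R 4.3.3 (filterByExpr, TMM, glmQLFit, glmQLFTest), with Benjamini-Hochberg adjustment over all genes and a threshold of 0.05. The SE is the log2 fold change divided by the square root of F. DESeq2 1.42.0, other scalings and filters, the replicate number as a block and leaving out each library were alternatives, and the fits were tested on simulated counts. Of related lists, the 3 highest and 3 lowest genes with a mean of at least 1 CPM are named, besides any past the threshold, except 1 gene that is not reported here. The members and lists were chosen with earlier results of these data known. Promoter windows are from RefSeq (GRCm38.p6) and gene positions from GENCODE (GRCm38). Intervals and floors cover counting error or the spread between these libraries only.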

Additional observations from a re-analysis of the deposited data

How the results depend on the processing

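Counts of genes depended strongly on the setting. Against 0 higher and 0 lower genes in the 5 libraries, DESeq2 gave 11 and 213, or 40 and 75 with a filtering target of 0.1 and 17 and 29 with no independent filtering (both chosen after seeing the data). The replicate numbers are only numbers here, since deviations of same-numbered libraries correlated at 0.41 for number 2 and -0.086 for number 3 over 13754 genes. With the replicate block, 582 genes were higher and 432 lower. Leaving out one library gave 0 to 265 higher and 0 to 130 lower, the highest without the library labelled GFP1. Where 1 SRF-OE library was left, it was assumed to vary like the GFP libraries. Without the library labelled GFP1, the counts were 547 and 392 with the replicate block, 853 and 832 with DESeq2, 88 and 9 with upper quartile scaling, and 55 and 9 with at least 10 counts in every library.

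Of the members, 1 (Fos) was called lower with DESeq2 at a target of 0.1 (-1.24), with DESeq2 without independent filtering (-1.24), with the replicate block (-1.27), and, without the library labelled GFP1, with the replicate block (-1.26) and with DESeq2 (-1.33). Leaving out one library kept it between -1.42 and -0.90 with 0 members called. The replicate block changed no other member's call, and moved Egr2 from -0.45 to -0.04. Of the related immediate early, partner and heat shock genes, 1 was higher and 1 lower with DESeq2, against 11 and 213 of all genes. With the replicate block 12 were higher, against 582 of 13754 genes. They were 4 of 21 further transcription factors, 6 of 31 effectors and feedback inhibitors, 0 of 10 partners and 2 of 13 heat shock genes. Leaving out the library labelled GFP1 gave 6 higher, against 265 of 13397 genes, and leaving out GFP2 or GFP3 gave 0, as for all genes. With the library labelled GFP1 left out, 12 were higher with the block (547 of 13397 genes) and 13 with DESeq2 (853 of 13559 genes). In the same way, 2 were higher with upper quartile scaling (88 of all genes) and 0 with at least 10 counts in every library (55 of all genes). Srf passed the threshold with the block (2.78) and, without that library, with the block (2.78), DESeq2 (2.87) and upper quartile scaling (2.92), missed it there with at least 10 counts in every library (2.89, adjusted p = 0.0503), and ranged from 1.13 to 2.87 on leaving out one library.

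Signs turned only in members near 0 and in Fosl2. Upper quartile scaling, which moved the median of all genes from 0.03 to 0.08, gave 0.022 for Jun, 0.032 for Jund and 0.00027 for Ier2. At least 10 counts in every library gave 0.0088 for Jund, and the replicate block gave 0.15 for Jund and 0.14 for Ier2. Without the library labelled GFP1, Jund was at 0.16 with the block, 0.15 with DESeq2, 0.21 with upper quartile scaling and 0.18 with at least 10 counts, Ier2 at 0.14, 0.14, 0.21 and 0.18, and Junb at 0.0058 with upper quartile scaling. On leaving out one library, Fosl2 ranged from -0.21 to 0.71, Jun from -0.15 to 0.16, Junb from -0.29 to 0.12, Jund from -0.14 to 0.16, Ier2 from -0.25 to 0.15, Fosb from -2.47 to -0.65, Egr1 from -0.83 to -0.44 and Egr2, tested in 3 of these fits, from -0.59 to -0.34. The cause of these changes was not tested. Depth limits Fosb, Egr2 and Egr3, and with 2 SRF-OE libraries the intervals of Jun, Junb, Jund and Ier2 still reach folds from 0.658 to 1.41.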

Other observations

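The AP-1 partners and the heat shock genes were also measured. Of 13 partners of AP-1 and co-repressors of Egr proteins, 10 were tested (not Batf, Batf2 and Batf3), and 0 passed the adjusted threshold. At an unadjusted p under 0.05, 1 was higher, against 6.35% of all genes, and 0 were lower, against 7.59%. The median log2 fold change was 0.16, or 0.27 without the library labelled GFP1. Among genes with a mean of at least 1 CPM, the highest were Nab2, a co-repressor that binds Egr proteins, with 0.68 (SE 0.37, adjusted p = 0.42), or 1.06 (adjusted p = 0.090) without that library, Mafk with 0.48 and Mafg with 0.46, while Atf7 was at -0.22 and Atf2 at -0.06.

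Of 13 heat shock genes, 0 passed. At an unadjusted p under 0.05, 2 were higher and 1 lower, against 6.35% and 7.59% of all genes. The median of the heat shock genes was 0.12, or 0.20 without the library labelled GFP1. Their summed level was 2821 and 4378 CPM in SRF-OE and 3459, 2675 and 2965 CPM in GFP, so the groups overlapped. Hspb1, a small heat shock protein abundant in muscle, was 376 and 990 CPM in SRF-OE, 431 CPM in the library labelled GFP1, and 151 and 173 CPM in GFP replicates 2 and 3, a log2 fold change of 1.44 (SE 0.56, adjusted p = 0.36), or 2.08 (SE 0.44, adjusted p = 0.059) without the library labelled GFP1. Hspa1b was at 1.05 (SE 0.84, adjusted p = 0.57), or 1.91 (adjusted p = 0.20) without it, and Hsp90aa1, an inducible chaperone, at 0.93 (SE 0.38, adjusted p = 0.36), or 1.33 (adjusted p = 0.066). At the low end were Hspd1, the mitochondrial chaperonin, with -0.41 (SE 0.12, adjusted p = 0.35), or -0.45 without that library, Dnajb4 with -0.18 and Hsph1 with -0.05. In Hspb1, Hspa1b and Hsp90aa1 the library labelled GFP1 lay between SRF-OE replicates 2 and 3, whereas in Fos it lay between GFP replicates 2 and 3.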
